A study of Mus musculus with 19 samples.

Results

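The genes described here are 9 members of the complement system: C3, the receptors of the peptides C3a (C3ar1) and C5a (C5ar1 and C5ar2), the alternative pathway factors Cfb and Cfp, and the regulators Cfi, Cd55 and Cd46. They were taken by gene symbol from a count table of 57010 genes, in which each of the 9 symbols matched a single gene. The table holds bulk RNA-seq of poly(A) RNA from wild-type mouse medial prefrontal cortex in 4 groups, and the study's title names C3a, its receptor and microglial glycolysis as what sedanolide modulates. Co-treated mice (n = 5) were gavaged with sedanolide, a phthalide of celery, at 20 mg/kg for 8 days, and from 3 days into that course were injected intraperitoneally with bacterial lipopolysaccharide (LPS) at 1 mg/kg for 5 days. LPS mice (n = 5) had the same injections with saline by gavage. Sedanolide mice (n = 5) had the same gavage with saline injections for 5 days. Control mice (n = 4, numbered 1, 2, 4 and 5) had saline by both routes. The labels give no strain, sex or age, and they do not say whether each library is a different animal. The p-values therefore speak only to the scatter among these libraries, and libraries of a group differed by more than counting noise (chi-square of 2.47 to 114 per degree of freedom between pairs). Values below are CPM, counts per 1000000 of the scaled library total, listed in replicate order.

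Complement is a cascade of proteases that tags surfaces for removal and releases small peptides that attract and activate myeloid cells. All of its routes meet at C3, which is cut into C3b, the tag, and C3a, the peptide ligand of the C3a receptor. In the alternative pathway, C3b binds factor B (Cfb), properdin (Cfp) holds the resulting convertase together, and the convertase cuts more C3. CD55 takes such convertases apart, and factor I (Cfi) destroys C3b with the help of cofactors such as CD46. In the brain, C3 is known as a product of reactive astrocytes, microglia and cells of the borders, and C3ar1 as a gene of microglia and other myeloid cells.

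The 4 members whose counts rose after LPS were C3, C3ar1, C5ar1 and C5ar2, and the 250 bases before their start sites are given here. The sequences are from RefSeq (GRCm38.p6), all on the minus strand, and are written 5′ to 3′. Capitals mark matches on either strand to a short form of the NF-kappa-B site (GGGA, any 4 bases, CC) or of the C/EBP site (TTGC, any 2 bases, AA).
C3: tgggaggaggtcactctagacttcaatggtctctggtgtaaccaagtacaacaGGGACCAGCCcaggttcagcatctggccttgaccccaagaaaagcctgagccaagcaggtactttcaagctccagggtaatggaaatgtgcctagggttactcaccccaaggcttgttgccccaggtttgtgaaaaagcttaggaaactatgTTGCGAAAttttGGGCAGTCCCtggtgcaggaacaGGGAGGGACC
C5ar2: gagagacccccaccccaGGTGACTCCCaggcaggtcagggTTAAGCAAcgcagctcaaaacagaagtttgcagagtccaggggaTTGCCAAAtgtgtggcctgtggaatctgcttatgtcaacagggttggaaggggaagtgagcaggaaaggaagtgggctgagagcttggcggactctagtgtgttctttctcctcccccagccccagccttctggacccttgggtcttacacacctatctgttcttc
C3ar1: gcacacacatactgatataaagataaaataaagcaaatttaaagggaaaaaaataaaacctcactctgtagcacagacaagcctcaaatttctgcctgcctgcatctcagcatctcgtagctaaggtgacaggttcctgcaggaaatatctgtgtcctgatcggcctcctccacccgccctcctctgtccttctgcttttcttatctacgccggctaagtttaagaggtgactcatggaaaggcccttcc
C5ar1: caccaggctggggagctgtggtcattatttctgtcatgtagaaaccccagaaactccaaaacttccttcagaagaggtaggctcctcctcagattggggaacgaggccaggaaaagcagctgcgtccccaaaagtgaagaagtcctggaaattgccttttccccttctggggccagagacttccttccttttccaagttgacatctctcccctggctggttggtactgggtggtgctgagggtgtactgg
These windows are chr17:57228137-57228386 for C3, chr7:16244155-16244404 for the first listed start site of C5ar2, chr6:122856158-122856407 for C3ar1 and chr7:16259339-16259588 for C5ar1. The C3 window held 3 matches to the NF-kappa-B letters, which began 197, 33 and 10 bases before the start site, and 1 match to the C/EBP letters at 45 bases. The C5ar2 window held 1 match to the NF-kappa-B letters at 233 bases and 2 to the C/EBP letters at 210 and 166 bases. The window of the second listed start site of C5ar2, chr7:16242332-16242581, is not printed and held no match. No capitals stand in the C3ar1 and C5ar1 windows. Among 32851 promoter windows of the same length, 17.6% held at least 1 match to the NF-kappa-B letters and 9.56% to the C/EBP letters. No member's window held a short form of the STAT site (TTC, any 3 bases, GAA), found in 7.02% of windows, or of the interferon-stimulated response element (GAAA, any 2 bases, GAAA), found in 2.98%. None of the matches overlapped another. RefSeq's table had windows for 7 of the 9 members, and among the others only Cd55 held a match, to the NF-kappa-B letters at 61 bases. A match describes the letters and is not a measured binding site. Whether the letters bear on the rises or their sizes was not tested.

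The 19 libraries held between 19083707 and 24318856 counts. Slc17a7, a transporter of excitatory cortical neurons, stood at 798 to 1880 CPM across all libraries. It marks such neurons in general and does not tell the medial prefrontal cortex from other cortex. Transcripts of the olfactory bulb, a neighbouring region, differed widely: Cdhr1, a cadherin of bulb neurons, was at 57.7 to 445 CPM in 7 libraries and at 2.29 to 9.92 CPM in the other 12, called bulb-poor here. The bulb-poor libraries were all 5 of the co-treated group, 2 of the LPS group, 3 of the sedanolide group and 2 of the control group. Bulb content and treatment with both agents therefore overlap, and results that shift with it are given both ways.

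After LPS alone, C3 and all 3 receptors of complement peptides rose, while no alternative pathway factor or regulator among the tested members passed in either direction. Of the 7 members with enough counts to be tested, 4 were higher and 0 lower in LPS than in control libraries, where 10.9% of 17757 genes were called, 8.47% higher and 2.44% lower (edgeR's quasi-likelihood test, Benjamini-Hochberg adjusted p below 0.05). With sedanolide on top of LPS, 1 member fell relative to LPS alone, and it was C3 (0 higher and 1 lower of 7, where 1.97% of all genes were called, 0.287% higher and 1.68% lower). In sedanolide mice without LPS, C3 and Cd46 fell relative to saline (0 higher and 2 lower of 7, where 5.31% of all genes were called, 3.2% higher and 2.11% lower). The median log2 change of the 7 members was 1.29 in LPS against control, -0.44 in co-treated against LPS and -0.33 in sedanolide against control, beside medians of -0.003, -0.013 and -0.012 over all genes tested.

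**Figure D1:**
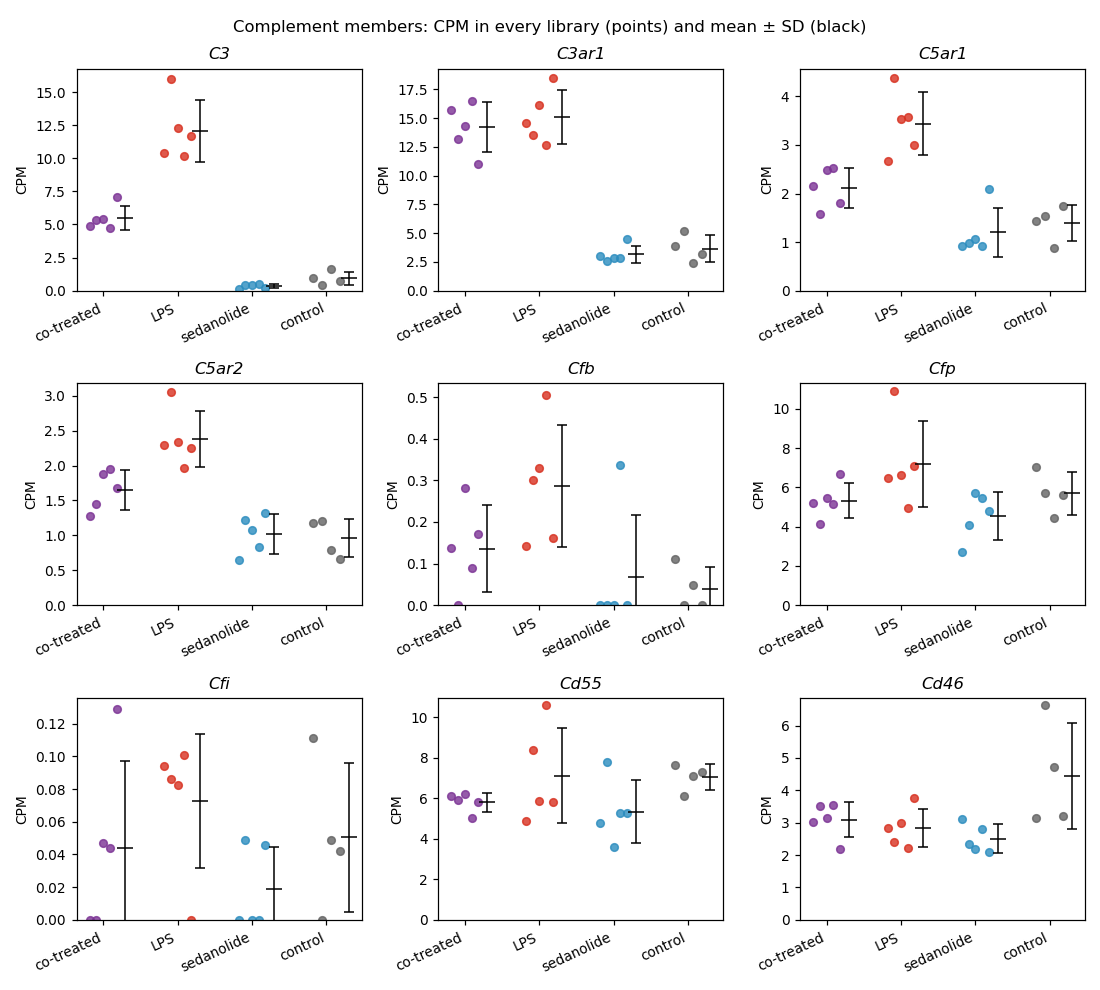
CPM of each of the 9 members (vertical axes, each on its own scale from 0) in every library (points) of the co-treated, LPS, sedanolide and control groups, with the mean ± SD in black; bars are cut at 0 for Cfb and Cfi. For C3, sedanolide and control are the only groups that overlap, while C3ar1 splits the groups by LPS alone.

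C3, the shared substrate of every complement route, had 4.86, 5.37, 5.41, 4.73 and 7.07 CPM in co-treated libraries, 10.4, 16.0, 12.3, 10.2 and 11.7 CPM in LPS libraries, 0.0915, 0.44, 0.4, 0.504 and 0.228 CPM in sedanolide libraries, and 0.924, 0.417, 1.62 and 0.71 CPM in control libraries. Every LPS library lay above every co-treated library, and every co-treated library lay above all sedanolide and control libraries. The lower end rests on few reads, 2 to 12 counts per sedanolide library and 9 to 33 per control library, where 3 counts equal 0.111 to 0.161 CPM. C3 averaged 12.1 ± 2.35 CPM in LPS libraries and 0.918 ± 0.513 CPM in control libraries (SD, n = 5 and 4), a log2 change of 3.73 (SE 0.31, 95% interval 3.08 to 4.37, adjusted p = 8.54e-08 by edgeR). C3 fell to 5.49 ± 0.933 CPM in co-treated libraries, against the 12.1 CPM of LPS libraries (SD, n = 5 each). This was 0.453 of the LPS level, with a log2 change of -1.14 (SE 0.24, interval -1.65 to -0.64, adjusted p = 0.0177 by edgeR).

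The fall of C3 in co-treated libraries kept its direction whichever library was left out, with log2 changes of -1.25 to -1.02. It lost its call without co-treated replicate 1, without co-treated replicate 3 or without LPS replicate 2 (adjusted p of 0.0609, 0.0548 and 0.0599 by edgeR). The 2 bulb-poor LPS libraries, replicates 1 and 5, had 10.4 and 11.7 CPM of C3, above the 7.07 CPM of the highest co-treated library. In bulb-poor libraries alone the log2 change was -0.99 (adjusted p = 0.195 by edgeR, 5 co-treated against 2 LPS libraries), and with bulb content as a covariate it was -1.04 (adjusted p = 0.0527).

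Sedanolide without LPS was followed by less C3 too, at 0.333 ± 0.169 CPM in sedanolide libraries and 0.918 ± 0.513 CPM in control libraries (SD, n = 5 and 4). The log2 change was -1.43 (SE 0.37, interval -2.21 to -0.66, adjusted p = 0.0344 by edgeR), although the highest sedanolide library, at 0.504 CPM, lay above the lowest control library, at 0.417 CPM. Its call was lost without any of control replicates 1, 4 and 5 or sedanolide replicates 1, 4 and 5 (adjusted p of 0.0515 to 0.0843 by edgeR), with log2 changes of -1.66 to -1.04 over all libraries left out. It was also lost in bulb-poor libraries (-2.01, adjusted p = 0.188 by edgeR, 3 sedanolide against 2 control libraries), with only these groups in the fit (-1.44, adjusted p = 0.148) and with replicate number as a block (-1.46, adjusted p = 0.0945). The sedanolide change of C3 with LPS and the change without it differed by 0.29 on the log2 scale (SE 0.43, interval -0.61 to 1.19, adjusted p = 0.799 by edgeR). That interval spans both a weaker and a stronger fall under LPS. C3 remained above saline in the co-treated mice, 5.99-fold over control (log2 2.58, SE 0.30, adjusted p = 1.12e-05 by edgeR).

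Markers of leukocytes and of vessels also differed between LPS and co-treated libraries. All 5 co-treated libraries but only 2 LPS libraries were bulb-poor, so these differences overlap with bulb content. The marker values are given for all libraries together, and the part of bulb content in them was not tested. The summed CPM of 8 neutrophil markers was 29.6 to 40.9 in co-treated, 60.6 to 65.4 in LPS, 5.48 to 12 in sedanolide and 7.35 to 11.9 in control libraries. Of the 7 such markers tested, 7 were called higher with LPS than with saline and 4 fell in co-treated relative to LPS libraries, with 0 called in sedanolide against control, while Ly6g, a neutrophil surface marker, had 0 to 3 counts in any library. The most abundant marker of the list, the cytokine receptor gene Csf3r, spanned 19.5 to 27.2 CPM in co-treated and 18.5 to 29.6 CPM in LPS libraries, which overlap. The summed CPM of 6 border macrophage markers was 9.31 to 18.2 in co-treated, 18.3 to 52.3 in LPS, 9.75 to 15.3 in sedanolide and 9.04 to 29.0 in control libraries, and 3 of the 6 fell in co-treated relative to LPS libraries. In LPS against control 1 of these 6 was called higher and 1 lower, and in sedanolide against control 1 was called lower. For 6 monocyte markers the sums were 16.1 to 23.5 in co-treated, 27.3 to 33.6 in LPS, 17.9 to 28.2 in sedanolide and 18.3 to 29.0 CPM in control libraries. Most of each sum was Vcan, at 14.3 to 21.2, 17.5 to 28.3, 17.2 to 27.8 and 16.8 to 27.8 CPM in the same order, which overlap. The other markers of this list had at most 67 counts in any library, so the sums mostly follow Vcan. Of the 6, 3 fell in co-treated relative to LPS libraries, 5 rose with LPS relative to control and 0 were called in sedanolide against control. The summed CPM of 6 endothelial markers was 373 to 487 in co-treated, 515 to 647 in LPS, 300 to 356 in sedanolide and 266 to 415 in control libraries. All 6 rose with LPS relative to control, 1 fell in co-treated relative to LPS libraries, and 0 were called in sedanolide against control. The 7 lymphocyte markers summed to 3.96 to 5.59 CPM in co-treated, 4.98 to 7.77 in LPS, 0.489 to 0.914 in sedanolide and 1.08 to 1.85 CPM in control libraries, and of the 4 tested 3 rose with LPS and 0 were called in co-treated against LPS. Of 6 astrocyte markers, 0 were called in LPS against control or in co-treated against LPS, with median log2 changes of 0.11 and -0.14. Of 7 meningeal fibroblast markers, 0 were called in either contrast (medians of 0.17 and -0.91). Of 4 choroid plexus markers tested, 0 were called in LPS against control and 1 fell in co-treated against LPS (medians of 0.06 and -1.48). In sedanolide against control, 1 astrocyte and 2 fibroblast markers were called lower. The part of these cells in the C3 values was not tested. In bulk tissue, fewer cells of a type and less RNA per cell cannot be told apart.

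C3ar1 encodes the receptor of C3a. It had 15.7, 13.2, 14.3, 16.5 and 11 CPM in co-treated libraries, 14.6, 13.5, 16.1, 12.7 and 18.5 CPM in LPS libraries, 3.02, 2.59, 2.8, 2.81 and 4.48 CPM in sedanolide libraries, and 3.88, 5.15, 2.36 and 3.22 CPM in control libraries. The libraries split by LPS into groups that do not overlap, and neither pair of groups with and without sedanolide separates. In LPS libraries C3ar1 averaged 15.1 ± 2.31 CPM, against 3.65 ± 1.18 CPM in control libraries (SD, n = 5 and 4; log2 2.04, SE 0.20, adjusted p = 6.86e-07 by edgeR). In co-treated libraries it averaged 14.2 ± 2.18 CPM, against the 15.1 CPM of LPS libraries, a log2 change of -0.09 (SE 0.17, interval -0.45 to 0.28, adjusted p = 0.795 by edgeR). The interval leaves room for a modest fall or rise and does not include the change seen in C3. Sedanolide against control gave -0.22 (SE 0.20, interval -0.64 to 0.21, adjusted p = 0.525 by edgeR).

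**Figure D2:**
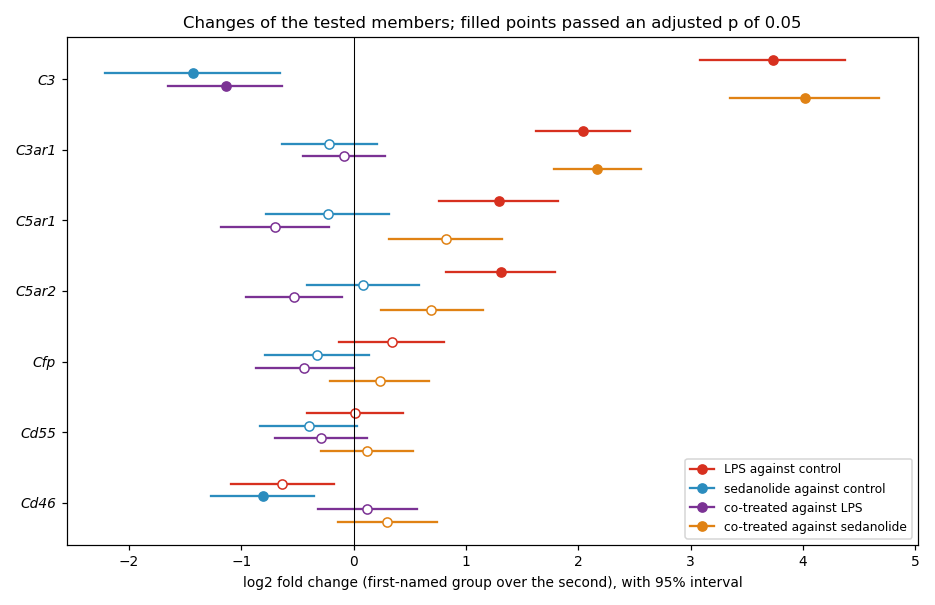
Log2 fold change (horizontal axis) with its 95% interval for the 7 tested members in co-treated against LPS, co-treated against sedanolide, LPS against control and sedanolide against control; filled points passed an adjusted p of 0.05. C3 lies to the right of 0 with LPS and to the left with sedanolide, and C3ar1 is near 0 in both sedanolide contrasts.

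The ligand gene and the receptor gene were also set against each other inside each library. Because this ratio was chosen after C3 and C3ar1 were seen to differ, its values are given as a description, and its test is not reported. The log2 ratio of C3 to C3ar1 CPM was -1.69, -1.29, -1.41, -1.81 and -0.64 in co-treated libraries, and -0.48, 0.25, -0.4, -0.31 and -0.66 in LPS libraries. Only co-treated replicate 5 reached into the LPS range, and the 2 bulb-poor LPS libraries had -0.48 and -0.66. The mean ratio was -1.37 ± 0.46 in co-treated, -0.32 ± 0.34 in LPS, -3.44 ± 1.16 in sedanolide and -2.1 ± 1.26 in control libraries (SD, n = 5, 5, 5 and 4).

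Microglia are the main cells of the cortex known to carry C3ar1. The summed CPM of 8 microglial markers was 771 to 1020 in co-treated, 822 to 997 in LPS, 453 to 595 in sedanolide and 414 to 571 in control libraries. Of the 8, 4 were called higher in LPS than in control libraries and 0 in either direction in co-treated against LPS. Csf1r, a growth factor receptor of microglia and the most abundant of them, was at 246 to 353 CPM in co-treated, 265 to 354 CPM in LPS, 125 to 183 CPM in sedanolide and 104 to 162 CPM in control libraries. A second ratio set C3ar1 against these markers. It was also chosen after the values were seen, so its values too are a description. The mean log2 ratio was -5.95 ± 0.16 in LPS and -7.07 ± 0.29 in control libraries, a difference of 1.13. In co-treated libraries the ratio was -5.94 ± 0.15, and -7.4 ± 0.24 in sedanolide libraries, a difference of 1.46. Co-treated and LPS libraries differed by 0.0, and sedanolide and control libraries by -0.32.

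**Figure D3:**
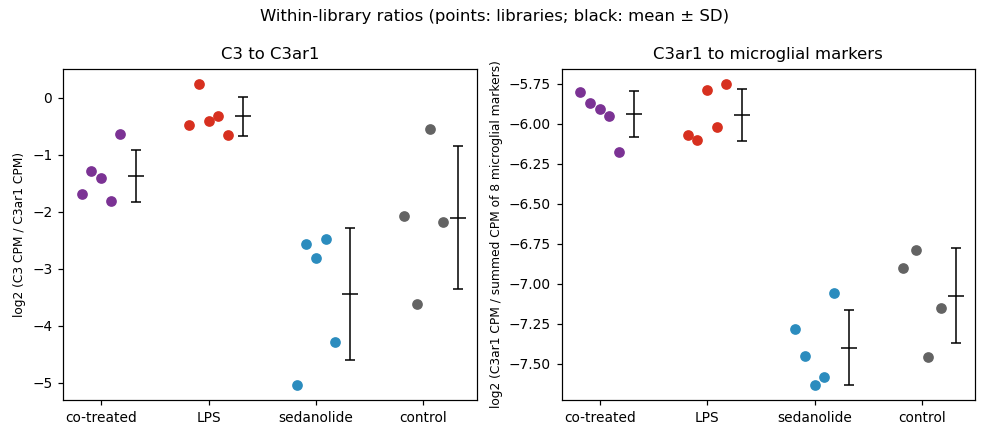
Log2 ratio of C3 to C3ar1 CPM (left) and of C3ar1 CPM to the summed CPM of 8 microglial markers (right) in every library (points), with the mean ± SD in black, for co-treated, LPS, sedanolide and control groups. The left ratio is lower with both agents than with LPS alone, at -1.37 and -0.32 on average, and the right one is at -5.94 and -5.95.

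C5ar1 and C5ar2 encode the receptors of C5a, the peptide cut from C5 further down the cascade. C5ar1 signals through G proteins and drives chemotaxis, while C5ar2 does not couple to them. C5ar1 had 2.15, 1.58, 2.49, 2.52 and 1.81 CPM in co-treated libraries, 2.68, 4.39, 3.54, 3.58 and 3.0 CPM in LPS libraries, 0.915, 0.978, 1.07, 0.923 and 2.1 CPM in sedanolide libraries, and 1.44, 1.53, 0.884 and 1.75 CPM in control libraries. C5ar2 had 1.28, 1.45, 1.88, 1.95 and 1.68 CPM in co-treated libraries, 2.3, 3.06, 2.34, 1.97 and 2.25 CPM in LPS libraries, 0.641, 1.22, 1.07, 0.839 and 1.32 CPM in sedanolide libraries, and 1.18, 1.21, 0.786 and 0.668 CPM in control libraries. For both genes all 5 LPS libraries lay above all co-treated and all control libraries. The co-treated libraries lay above all control libraries for C5ar2, whereas for C5ar1 those groups overlapped.

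In LPS libraries C5ar1 averaged 3.44 ± 0.654 CPM, against 1.4 ± 0.37 CPM in control libraries, a log2 rise of 1.29 (SE 0.25, adjusted p = 0.00158 by edgeR). C5ar2 averaged 2.38 ± 0.404 CPM in LPS libraries and 0.96 ± 0.274 CPM in control libraries, a rise of 1.31 (SE 0.23, adjusted p = 0.000541). In bulb-poor libraries, 2 per group, these changes were 1.20 and 1.16 and missed the threshold (adjusted p of 0.106 and 0.076). The co-treated libraries averaged 2.11 ± 0.413 CPM of C5ar1 and 1.65 ± 0.281 CPM of C5ar2. Against LPS the log2 changes were -0.70 for C5ar1 (SE 0.23, interval -1.18 to -0.22, adjusted p = 0.113) and -0.53 for C5ar2 (SE 0.21, interval -0.96 to -0.10, adjusted p = 0.172), so neither passed edgeR's test over all genes. With limma-voom and sample weights both did, at -0.60 and -0.49 (adjusted p of 0.0157 and 0.036). Against control, C5ar2 rose by 0.77 in co-treated libraries (SE 0.23, adjusted p = 0.0388 by edgeR), a call lost without any of co-treated replicates 3, 4 and 5 and control replicates 4 and 5 (adjusted p up to 0.138). The call was also lost with bulb content as a covariate (0.79, adjusted p = 0.0859 by edgeR) and in bulb-poor libraries (0.71, adjusted p = 0.256). Nor did it hold without a filter on low counts (0.76, adjusted p = 0.0889 by edgeR). It was lost too with only the co-treated and control groups in the fit (0.75, adjusted p = 0.0765) and with replicate number as a block (0.76, adjusted p = 0.0876). DESeq2 and limma-voom kept it, at 0.76 and 1.03. C5ar1 was at 0.58 in that contrast (SE 0.25, adjusted p = 0.14).

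Sedanolide replicate 5 stood apart from its group in C5ar1, with 2.1 CPM beside 0.915 to 1.07 CPM, and also had its highest C3ar1, at 4.48 CPM. In co-treated against sedanolide libraries C5ar1 changed by 0.82 (SE 0.24, adjusted p = 0.0558 by edgeR), and by 1.12 without that library (adjusted p = 0.00238). It also passed without co-treated replicate 2 or control replicate 4 (adjusted p of 0.046 and 0.0404), and with bulb content as a covariate (0.89, adjusted p = 0.0294 by edgeR). C5ar2 changed by 0.69 there (SE 0.22, adjusted p = 0.0747). Sedanolide against control gave -0.23 for C5ar1 (adjusted p = 0.605) and 0.08 for C5ar2 (adjusted p = 0.868).

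The 2 alternative pathway factors differed greatly in level. Cfp, encoding properdin, which is made by myeloid cells, had 5.18, 4.14, 5.46, 5.17 and 6.68 CPM in co-treated libraries, 6.49, 10.9, 6.62, 4.94 and 7.07 CPM in LPS libraries, 2.7, 4.06, 5.69, 5.45 and 4.8 CPM in sedanolide libraries, and 7.06, 5.7, 4.42 and 5.6 CPM in control libraries. All 4 groups overlap, and the widest spread was among LPS libraries (SD 2.2 CPM, of a mean of 7.2). Its log2 change was 0.34 in LPS against control (SE 0.22, adjusted p = 0.374 by edgeR), -0.44 in co-treated against LPS (SE 0.21, adjusted p = 0.253) and -0.33 in sedanolide against control (SE 0.22, adjusted p = 0.369). The interval of the LPS change, -0.13 to 0.80, includes no change and lies below the estimates for C3 and the receptors. It overlaps the interval of C5ar1, 0.76 to 1.82, and the genes were not tested against each other.

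Cfb, the protease subunit of the alternative convertase, had 3, 0, 6, 2 and 4 counts in co-treated libraries, 3, 7, 8, 10 and 3 in LPS libraries, 0, 0, 0, 8 and 0 in sedanolide libraries, and 3, 0, 1 and 0 in control libraries. Summed over libraries these are 15, 31, 8 and 4 counts, and they were too few for the main test. Without a filter on low counts, the log2 change was 2.59 in LPS against control (SE 0.97, interval 0.59 to 4.58, unadjusted p = 0.0129, adjusted p = 0.167 by edgeR) and -1.05 in co-treated against LPS (SE 0.76, adjusted p = 0.555). The gene Gm20547, on the same strand, shares 6107 bases with Cfb and was listed at 0 in all libraries, and how reads in the shared bases were assigned is not given in the sources used here, so the Cfb counts are uncertain. Cfd, the protease that activates factor B, had 0 to 2 counts in any library. Every LPS library had more CPM of Cfb than any control library, although the nearest of both had 3 counts, and the change did not pass the test over all genes. A difference in Cfd was not detectable at this depth.

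Among the members, no regulator was called higher in any contrast. Regulators of the wider complement list, given below, were. Cfi, whose product cleaves C3b, had 0 to 3 counts in every library, summing to 5 in co-treated, 8 in LPS, 2 in sedanolide and 5 in control libraries, so no difference was detectable. Cd55, which speeds the decay of convertases, had 6.1, 5.9, 6.21, 5.0 and 5.82 CPM in co-treated libraries, 4.89, 8.35, 5.88, 10.6 and 5.79 CPM in LPS libraries, 4.76, 7.78, 3.6, 5.29 and 5.25 CPM in sedanolide libraries, and 7.65, 6.12, 7.07 and 7.31 CPM in control libraries. LPS replicates 2 and 4, both rich in bulb transcripts, were the highest of all, and sedanolide replicate 3, also rich in them, was the lowest, at 3.6 CPM. Cd55 changed by 0.01 in LPS against control (SE 0.21, interval -0.42 to 0.44, adjusted p = 0.981 by edgeR), a value whose sign turned to -0.17 with limma-voom and -0.32 in bulb-poor libraries. It changed by -0.29 in co-treated against LPS (adjusted p = 0.402) and -0.40 in sedanolide against control (SE 0.21, adjusted p = 0.235).

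Cd46, encoding the membrane cofactor of factor I, whose protein is known in mice mainly from the testis, had 3.03, 3.52, 3.15, 3.54 and 2.2 CPM in co-treated libraries, 2.82, 2.41, 3.0, 2.22 and 3.75 CPM in LPS libraries, 3.11, 2.35, 2.18, 2.81 and 2.1 CPM in sedanolide libraries, and 3.14, 6.63, 4.72 and 3.22 CPM in control libraries. The control libraries reached higher than any other, and all 5 sedanolide libraries lay below all 4 control libraries, with 3.11 CPM in the nearest sedanolide library and 3.14 CPM in the nearest control library. Cd46 averaged 2.51 ± 0.435 CPM in sedanolide and 4.43 ± 1.64 CPM in control libraries (SD, n = 5 and 4; log2 -0.81, SE 0.22, adjusted p = 0.0403 by edgeR). The call held in 9 of 19 fits that left out a library. It was lost without co-treated replicates 1 or 3, LPS replicate 3, sedanolide replicates 2 to 5 or control replicates 2, 4 or 5, with the smallest change, -0.55, without control replicate 2 (adjusted p = 0.0998 by edgeR). In bulb-poor libraries it was -1.20 and missed the threshold (adjusted p = 0.0815 by edgeR). In LPS against control Cd46 changed by -0.64 (SE 0.22, adjusted p = 0.07). It passed with DESeq2 (-0.65, adjusted p = 0.0455), with bulb content as a covariate (-0.63, adjusted p = 0.0186 by edgeR) and without control replicate 1, control replicate 5 or LPS replicate 5 (adjusted p of 0.0293, 0.0478 and 0.0362 by edgeR). In co-treated against control Cd46 changed by -0.51 (adjusted p = 0.126 by edgeR). It passed there with bulb content as a covariate (-0.78, adjusted p = 0.0191) and in bulb-poor libraries (-0.89, adjusted p = 0.0326). The sedanolide change with LPS and that without differed by 0.93 (SE 0.30, adjusted p = 0.156), the smallest p of the 7 members in that test.

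Counts of Cd46 may hold reads of another gene. The opposite-strand gene A330023F24Rik shares 1079 bases with it, and the strand setting of the counting is not given in the sources used here. A330023F24Rik stood at 11 ± 1.67 CPM in sedanolide and 15 ± 2.53 CPM in control libraries (SD, n = 5 and 4), a log2 change of -0.45 (SE 0.15, adjusted p = 0.0775 by edgeR). The 1079 bases are shared by the gene intervals, and how many Cd46 counts come from them cannot be told here.

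Relative to the mice given sedanolide alone, co-treated mice showed what LPS did under sedanolide. C3 and C3ar1 were higher (2 higher and 0 lower of 7, where 5.58% of all genes were called, 5.09% higher and 0.484% lower), by 4.02 for C3 (SE 0.32, adjusted p = 7.15e-08 by edgeR) and 2.17 for C3ar1 (SE 0.19, adjusted p = 1.99e-07). Relative to control, co-treated mice had 3 members higher and 0 lower (11.1% of all genes were called, 6.38% higher and 4.69% lower), which were C3, C3ar1 and C5ar2. With bulb content as a covariate, and in bulb-poor libraries, Cd46 was also called lower there and C5ar2 was not called. C3ar1 was 3.87-fold the control level there (log2 1.95, SE 0.20). These contrasts reuse the co-treated, LPS, sedanolide and control libraries of the others, so they are not independent of them. No member passed the test of whether the sedanolide change differed with and without LPS (0 of 7 by edgeR, by DESeq2 and by limma-voom; 0.586% of all genes; at an unadjusted p below 0.05, Cd46 alone).

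Per length of exon, the members kept different orders in the 4 groups. In control libraries Cfp led at 3.28 ± 0.621 CPM per kb of exon, above Cd55 at 1.45 ± 0.135, C3ar1 at 0.848 ± 0.273 and Cd46 at 0.582 ± 0.216. The ranges of the first 3 of these were apart, and those of C3ar1 and Cd46 overlapped. C3 ranked 7 of 9 in sedanolide and in control libraries, at 0.0647 ± 0.0329 CPM per kb in sedanolide and 0.178 ± 0.0997 in control libraries. In LPS libraries C3 ranked 3, at 2.36 ± 0.456 CPM per kb, behind Cfp at 4.14 ± 1.27 and C3ar1 at 3.5 ± 0.537, and the ranges of each of these neighbours overlapped. In co-treated libraries C3ar1 and Cfp came first, at 3.29 ± 0.505 and 3.07 ± 0.524 CPM per kb with overlapping ranges, and C3 ranked 4 at 1.07 ± 0.181, overlapping Cd55 at 1.2 ± 0.0982. Cfb and Cfi were the lowest in every group, at or under 0.102 CPM per kb on average.

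**Figure D4:**
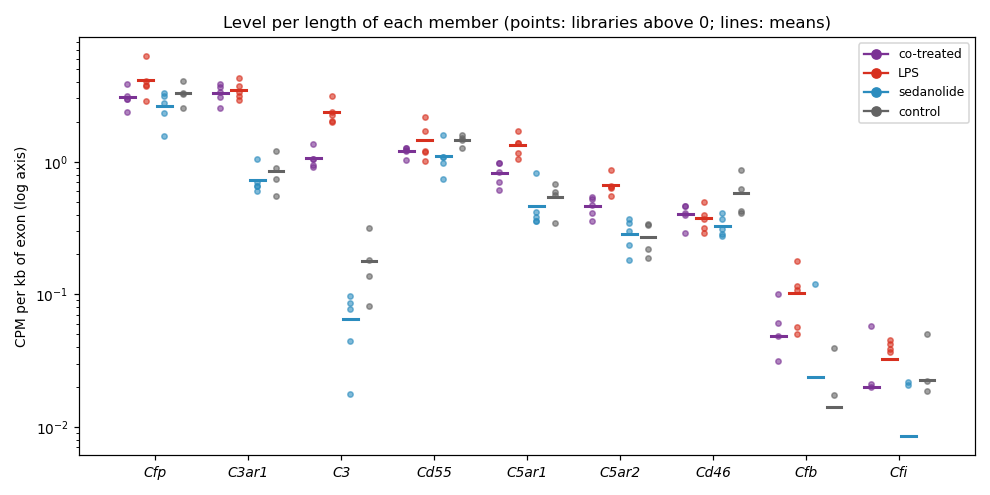
CPM per kb of exon on a log axis for each member, with libraries above 0 as points and group means as lines, for the co-treated, LPS, sedanolide and control groups. C3 spans the widest range of the members, with group means from 0.0647 to 2.36 CPM per kb, and Cfb and Cfi lie lowest.

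The rest of the complement system was read from a list of 51 genes, of which 30 had enough counts to be tested. After LPS, 13 of the 30 were called higher and 0 lower relative to control, where 8.47% of all genes were called higher and 2.44% lower, and the median log2 change of the 30 was 0.68, beside -0.003 over all genes. In the classical initiation steps these were C1qa (1.72, SE 0.13), C1qb (1.49) and C1qc (1.72), the chains of the recognition molecule C1q, its proteases C1ra (1.67) and C1s1 (1.39), and C4b (2.08, SE 0.42), the substrate of C1s. Among receptors of C3 fragments, Itgax rose by 3.23 (SE 0.23), Itgb2 by 2.34 and Itgam by 1.47, which pair up as complement receptors 3 and 4, and Cd93, once described as a C1q receptor, rose by 1.15. Among regulators, Clu, encoding clusterin (0.67, SE 0.15), rose, as did Cr1l, encoding Crry, the broadly expressed convertase regulator of mice (0.37, SE 0.07). Of the 5 receptor genes tested, 4 were thus called, and Cr2, the receptor of B cells, was not. In bulb-poor libraries 10 of the 30 were called higher (4.07% of all genes), and C1ra (0.97) and Cr1l (0.27) were among those that lost the call. C4b has a near-identical copy, C4a, and reads could be split between them, as they could between C1ra and C1rb or C1s1 and C1s2.

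In co-treated relative to LPS libraries 3 of the 30 fell and 0 rose, where 1.68% of all genes were called lower and 0.287% higher. They were C1s1, with 2.88 ± 0.571 CPM in co-treated and 4.66 ± 0.479 CPM in LPS libraries (SD, n = 5 each; log2 -0.69, adjusted p = 0.0368 by edgeR), Cd93, with 29.0 ± 2.11 CPM in co-treated and 47.4 ± 8.18 CPM in LPS libraries (-0.71, adjusted p = 0.00289), and Itgb2, with 23.3 ± 2.14 CPM in co-treated and 34.3 ± 4.81 CPM in LPS libraries (-0.56, adjusted p = 0.0491). For all 3 the co-treated libraries lay below all LPS libraries. The call of Cd93 held in 19 of 19 fits that left out a library, that of C1s1 in 10 and that of Itgb2 in 8. C1s1 lost it without co-treated replicates 1, 2, 3 or 5, LPS replicates 1 to 4 or sedanolide replicate 4, and Itgb2 without any co-treated library, LPS replicates 1, 2, 3 or 5, sedanolide replicate 4 or control replicate 5. In bulb-poor libraries none of the 3 was called (Cd93 -0.50, adjusted p = 0.195 by edgeR). C4b had 55.7 ± 7.32 CPM in co-treated and 102 ± 20.3 CPM in LPS libraries, also without overlap, and its change of -0.88 (SE 0.38) did not pass (adjusted p = 0.21). The C1q chains, by contrast, changed by -0.16 to -0.07 with adjusted p of 0.421 or more, and C1qa had 185 ± 19.5 CPM in co-treated and 202 ± 25 CPM in LPS libraries. Itgax changed by 0.02 (SE 0.17, adjusted p = 0.964). DESeq2 called 6 of the 30 lower in this contrast, and 3.88% of all genes with an adjusted p. Limma-voom called 12 lower and 1 higher, and 9.4% of all genes lower and 5.51% higher. Sedanolide without LPS changed none of the 30 by edgeR (8 at an unadjusted p below 0.05), beside 5.31% of all genes. DESeq2 called 2 of the 30 and 12.2% of all genes with an adjusted p there, and limma-voom 3 and 24.8%.

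**Figure D5:**
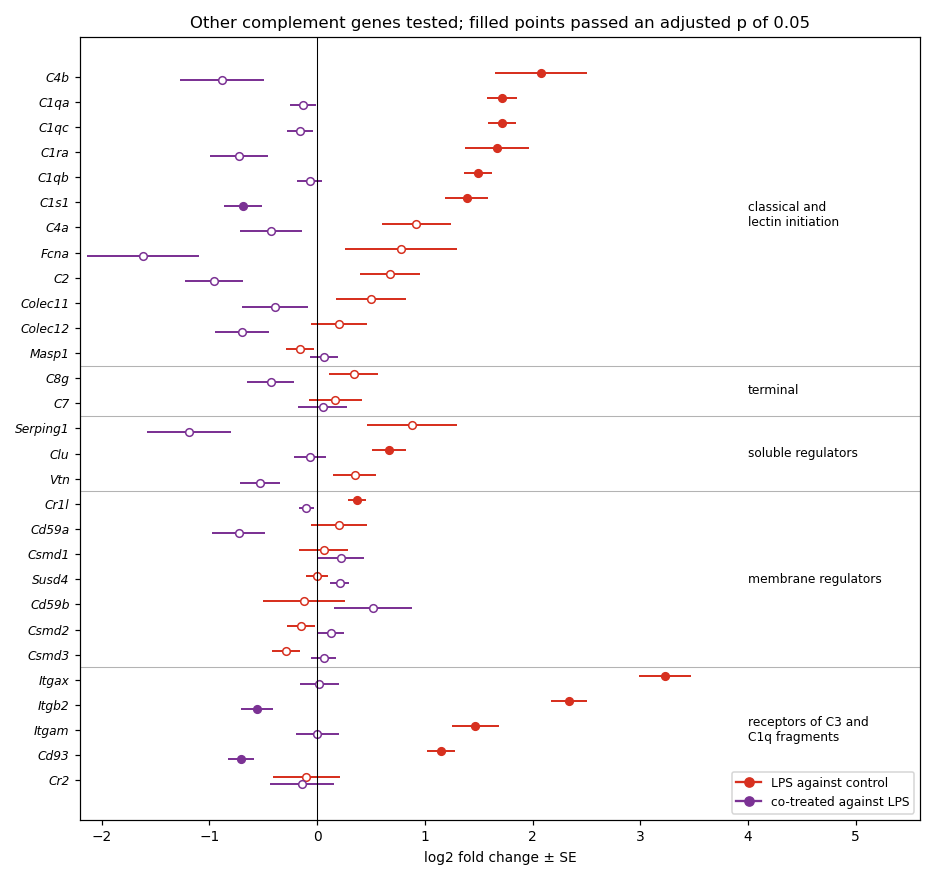
Log2 fold change ± SE (horizontal axis) of 29 tested genes of the wider complement list in LPS against control and in co-treated against LPS, grouped by role; filled points passed an adjusted p of 0.05. The C1q chains lie near 1.5 to 1.72 after LPS and close to 0 in co-treated against LPS, while Itgb2, Cd93 and C1s1 are the filled points left of 0.

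Of 13590 protein-coding genes searched across the 19 libraries, those whose log2 CPM profile lay nearest to that of C3ar1 were Cd300c2, an activating receptor of myeloid cells, Cd14, the LPS co-receptor, Fcgr2b, the inhibitory Fc receptor, and the small GTPase genes Rab32 and Rac2. Their root-mean-square distances were 0.22 to 0.26 on the log2 scale. Cd14, for example, averaged 12.5 ± 1.14 CPM in co-treated, 12.9 ± 1.5 in LPS, 3.15 ± 0.224 in sedanolide and 3.13 ± 0.812 CPM in control libraries (SD, n = 5, 5, 5 and 4). The genes nearest to C3 were S100a8, Lcn2, Itgax, Pirb, an inhibitory receptor of myeloid cells, and S100a9, at distances of 0.74 to 0.79. C3 had only 2 to 12 counts per sedanolide library and 9 to 33 per control library. Scatter at such counts widens a log2 distance, so the distances for C3 cannot be compared with those for C3ar1. S100a8 and S100a9, which encode the subunits of calprotectin, belong to the neutrophil list above. Lcn2, encoding lipocalin 2, averaged 6.8 ± 1.0 CPM in co-treated, 25.8 ± 14.1 in LPS, 0.617 ± 0.279 in sedanolide and 0.677 ± 0.219 CPM in control libraries.

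In the table's own coordinates, whose genome build is not given, C3 (ENSMUSG00000024164) spans 57510970 to 57535136 of chromosome 17, and Cfb (ENSMUSG00000090231) spans 35075350 to 35081494 of the same chromosome. C3ar1 (ENSMUSG00000040552) lies on chromosome 6 from 122824097 to 122833120. C5ar2 (ENSMUSG00000074361) and C5ar1 (ENSMUSG00000049130) are neighbours on chromosome 7, from 15968510 to 15978079 and from 15980668 to 15993465. Cfp (ENSMUSG00000001128) lies on chromosome X from 20791693 to 20797794, and Cfi (ENSMUSG00000058952) on chromosome 3 from 129629533 to 129668981. Cd55 (ENSMUSG00000026399) and Cd46 (ENSMUSG00000016493) lie on chromosome 1, from 130366764 to 130390481 and from 194719134 to 194774557. All 9 are annotated as protein-coding, and all but Cfi are on the minus strand.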

How the data were processed

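Bulk RNA-seq counts of 19 libraries were analysed. Strand-marking poly(A) libraries were prepared, per the labels' protocols. The deposited values are raw read counts, whole numbers for each gene with no normalization. The submitters' processing notes name fastp, HISAT2, StringTie, RSEM and DESeq2 without versions, and the deposited table carries the name featureCounts. The counting settings, its use of strand and the genome build are not given in the sources used here. Each of the table's value columns was matched to a sample by the labels (0 unmatched).

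Groups were taken from the labels. Counts were tested in edgeR 4.0.16 (R 4.3.3) with TMM factors, the default expression filter by group (17757 genes left, with 7 of the 9 members) and the robust quasi-likelihood test, two-sided, with 1 mean per group over all 19 libraries. The Benjamini-Hochberg adjustment ran over every gene tested, separately for each comparison, and calls were made below 0.05. The SE is the size of the log2 change divided by the root of its F statistic. The procedure was tested on simulated data. CPM used the same factors. Totals of 19083707 to 24318856 counts set the precision, and 3 counts, taken as the floor, equal 0.111 to 0.161 CPM. Levels per kb used exon lengths of GENCODE M21 (GRCm38), matched by gene ID, because the table has no length column. Promoters are RefSeq's, of GRCm38.p6, and no coordinates were moved between builds. Overlapping genes were found from the table's coordinates.

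The named genes are every member, the genes of the complement list called in LPS against control or in co-treated against LPS with Cfd, the 5 genes nearest to C3 and to C3ar1 by root-mean-square difference of centred log2 CPM (prior count 2), and the most abundant cell markers. A gene of the complement list is in its counts and is not reported here by name. The members, lists and bulb split were chosen with earlier results of these data known. The ratios within libraries and the values of A330023F24Rik were added after the values were seen, and the ratios are given as a description. Alternatives were RLE factors, no filter, at least 1 CPM in 4 libraries, DESeq2 1.42.0, limma-voom (limma 3.58.1) with sample weights, only the groups compared, a replicate block, a bulb index of 4 markers as a covariate, bulb-poor libraries (Cdhr1 under 20 CPM), ordering by the median, and leaving out each library.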

Additional observations from a re-analysis of the deposited data

Results flagged for a closer look

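In 5 of 36 combinations of member and group, a library stood apart from the others of its group by Dixon's 95% criterion, where chance gives about 1 in 20. C3 was at 7.07 CPM in co-treated replicate 5, with the other co-treated libraries at 4.73 to 5.41 CPM. Without that library the log2 change of C3 in co-treated against LPS was -1.25, against -1.14 with it. Sedanolide replicate 5 had the highest C3ar1 of its group, 4.48 CPM beside 2.59 to 3.02 CPM, and the highest C5ar1, 2.1 CPM beside 0.915 to 1.07 CPM. Cfb was at 0.336 CPM (8 counts) in sedanolide replicate 4 and listed at 0 in the other 4 sedanolide libraries. Cfi was at 0.0 CPM in LPS replicate 5 and at 0.0823 to 0.101 CPM in the other LPS libraries, each of which had 2 counts, so this gap is within counting error.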

How the results depend on the processing

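The rises of C3 and C3ar1 with LPS were called under all alternatives, and library factors moved the median of all genes by at most 0.0354 on the log2 scale. For LPS against control, 2 members were called in bulb-poor libraries in place of 4, beside 848 in place of 1938 over all genes. In sedanolide against control the 2 calls became 0 in bulb-poor libraries, with only the groups compared and with the replicate block, where C3 changed by -2.01, -1.44 and -1.46 (adjusted p of 0.188, 0.148 and 0.0945 by edgeR). Over all genes the 943 calls of this contrast became 8, 19 and 95 in the same order, so the loss was not particular to the members. In co-treated against LPS the 1 call became 0 with the bulb index, in bulb-poor libraries and with the replicate block, where C3 changed by -1.04, -0.99 and -1.14 (adjusted p of 0.0527, 0.195 and 0.0671), and became 3 with limma-voom and 2 with only the groups compared. Over all genes the 350 calls of this contrast became 140, 35, 145, 2647 and 723 in the same order. Limma-voom called 4 members in co-treated against sedanolide in place of 2, beside 3513 in place of 990 over all genes. Leaving out a library gave 0 to 1 members in co-treated against LPS and 0 to 2 in sedanolide against control, beside 141 to 590 and 97 to 1410 of all genes. C3 then changed by -1.25 to -1.02 in co-treated against LPS and by -1.66 to -1.04 in sedanolide against control. Of 27 same-number pairs of libraries, 5 had deviations correlated above 0.1 (range -0.51 to 0.29). In every other group at once, 0 of 19 libraries correlated best with their own number. That criterion is strict, so it cannot decide whether replicate numbers pair the libraries. The signs that turned were all of values that passed no test. Cd55 in LPS against control was -0.32 in bulb-poor libraries, -0.17 with limma-voom, -0.01 without a filter and -0.18 to 0.12 with a library left out, and in bulb-poor libraries it was 0.14 in co-treated against LPS and -0.01 in co-treated against sedanolide. C5ar1 in sedanolide against control was 0.11 in bulb-poor libraries, and C5ar2 there was -0.06 to 0.21 with a library left out. Cd46 in co-treated against LPS was -0.15 with the bulb index and -0.07 in bulb-poor libraries. Cfp in co-treated against control was 0.16 with the bulb index, 0.07 in bulb-poor libraries and -0.20 to 0.02 with a library left out. In the difference between the sedanolide changes with and without LPS, C3 was -0.06 with limma-voom and -0.10 to 0.52 with a library left out, C3ar1 -0.02 in bulb-poor libraries and -0.08 to 0.29 with a library left out, and Cfp 0.01 with the bulb index, 0.09 in bulb-poor libraries and -0.25 to 0.09 with a library left out. Ordering the members by the median put 4 of them at another rank. The causes were not tested. Cfb and Cfi, at 10 counts or fewer per library, and C3 without LPS are limited by depth.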
